A study of Mus musculus with 2 samples.

Results

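Auts2 was examined for N6-methyladenosine (m6A), the methylated adenosine of mRNA, at single-base resolution in the newborn mouse brain. Every listed m6A position on the minus strand within the annotated gene, chr5:131437333-132543344 (GRCm38, GENCODE M21), was taken as an Auts2 site. There were 76 such sites among the 79355 of the cerebellum library and 403 among the 188295 of the cerebrum library, and 453 positions were listed in at least 1 library. Both libraries were made by GLORI, in which glyoxal and nitrite convert unmethylated adenosine so that it is read as G while m6A is still read as A. The RNA was poly(A)+ RNA of a female F1r hybrid mouse (C57BL/6J mother, PWK/PhJ father) at postnatal day 0, with 1 library per tissue and no further treatment group, and neither genotype nor age differs between the libraries. The methods give a single mouse as the source, so no spread between animals was measured.

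The gene was chosen by its number of listed sites, in particular by its many intronic sites outside the DRACH motif (any base but C, then a purine, the adenosine, a C and any base but G), which is the sequence that the METTL3/METTL14 methyltransferase recognizes. Site counts and the rank of the gene are therefore a description and were not tested. The deposited lists hold positions only, without methylation rates or read counts. The depth is therefore unknown, and a listed site counts the same whether weakly or strongly methylated. The paper called GLORI sites high-confidence only where they overlapped an m6A-seq peak. That step was not applied here, so each listed site is a GLORI call without that second line of evidence. With 1 library per tissue, tissue and library cannot be told apart. In bulk tissue, fewer cells of a type and less RNA per cell also cannot be told apart. Intervals given with shares are 95% Wilson intervals, those given with counts or densities are exact Poisson intervals, and both cover counting error over sites only.

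AUTS2 is a nuclear and cytoplasmic protein of developing neurons, and disruption of the human gene is a known cause of a neurodevelopmental syndrome. In the nucleus it joins variant Polycomb repressive complexes built on PCGF3 or PCGF5 and is known to turn them towards transcriptional activation through casein kinase 2 and EP300. In the cytoplasm it acts on the actin cytoskeleton through RAC1 and CDC42, and thereby on neurite growth and migration. m6A on mRNA is known for its concentration in long internal and last exons and around stop codons, where it affects mRNA decay and translation.

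The gene is 1106 kb long, and the exons of its full-length model, Auts2-207 with 19 exons, make up 7409 nt or 0.670% of it. Of the 20 annotated isoforms, 7 are marked as coding. Among these, Auts2-209 and Auts2-208 start at first exons of their own inside intron 5 of the full-length model and share the 3′ exons with it. Below, a site is called exonic if it lies in an exon of any Auts2 isoform and intronic otherwise. By that rule 97.9% of the gene is intron.

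Sequences around 13 of the 23 exonic sites listed in both libraries are shown first, because they are the positions the libraries had in common. Each run is 21 nt of the GRCm38 reference on the Auts2 strand, 5′ to 3′, with the 5-mer centred on the listed adenosine in capitals. They run from the 5′ UTR of the full-length model through the first exon of Auts2-209 to the coding part of exon 19 and its 3′ UTR.
chr5 position 132542951, 5′ UTR: cgggttggAGACTgctctttg
chr5 position 132542928, 5′ UTR: ttcctcgtTGACTgactcacc
chr5 position 132542924, 5′ UTR: tcgttgacTGACTcaccccct
chr5 position 131616283, first exon of Auts2-209: ccacttacGAACCcttatctt
chr5 position 131616188, first exon of Auts2-209: ttccttggAGACTttgaattt
chr5 position 131440514, coding exon 19: tcccgaaaGGACCtgaccacc
chr5 position 131440094, coding exon 19: ggtagtctGGACAggacacgt
chr5 position 131439598, coding exon 19: accagaatGGACTgcttaaca
chr5 position 131439452, coding exon 19: acactgaaGGACAttgaagct
chr5 position 131439374, 3′ UTR: ccccccccAGACTcaagagac
chr5 position 131439365, 3′ UTR: gactcaagAGACAactcccgc
chr5 position 131439295, 3′ UTR: aaaaaaaaGGACAgacactct
chr5 position 131439291, 3′ UTR: aaaaggacAGACActctgttt
The last 4 lie within 84 nt of each other, between 62 and 145 nt downstream of the stop codon, and both libraries listed all 4. No 100-nt window of Auts2 held more sites than this one in either library, although 1 intronic window of the cerebellum and several windows of the cerebrum also held 4.

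Exonic sites of Auts2 were mostly DRACH sites, and most of those listed in the cerebellum were also listed in the cerebrum, which added others. In exons of any isoform the cerebellum library listed 26 sites, 23 of them DRACH (88.5%, interval 71.0 to 96.0), and the cerebrum library listed 57, 43 of them DRACH (75.4%, interval 62.9 to 84.8). Over the exons of all coding genes the DRACH share was 73.6% for the cerebellum library and 59.8% for the cerebrum library. Of the 23 exonic DRACH sites of the cerebellum, 22 were also listed in the cerebrum (95.7%, interval 79.0 to 99.2), beside 83.3% of all exonic DRACH sites of coding genes. In the other direction, 22 of the 43 cerebrum sites were also listed in the cerebellum (51.2%, interval 36.8 to 65.4), beside 48.4% over coding genes. The cerebrum list is 2.37 times as long as the cerebellum list in all, and 1.72 times as long for exonic DRACH sites, against 1.87 times for those of Auts2. By its number of exonic DRACH sites Auts2 stood well above the typical gene. Exons of any Auts2 isoform cover 22890 nt, and the counts were not adjusted for exon length. The median over coding genes with any such site was 3 (cerebellum) and 5 (cerebrum), and 319 and 146 of 21951 coding genes, Auts2 included, had at least as many as Auts2.

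GGACA was the most frequent motif among the 44 exonic DRACH positions of Auts2, with 10 of them, 7 listed in the cerebellum and 9 in the cerebrum. GGACT, the next in frequency with 8 positions, was listed at 1 of them in the cerebellum and at all 8 in the cerebrum. AGACT and GGACC had 5 positions each. The 5 AGACT positions were all listed in the cerebrum and 3 of them in the cerebellum. The 44 positions are those listed in at least 1 library, and 43 of them were listed in the cerebrum against 23 in the cerebellum. How many GGACA or GGACT adenosines these exons hold, and the motif shares over all coding genes, were not counted. These are small counts of 1 gene, and whether motifs differed between the libraries was not tested.

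Within the full-length model the sites lay almost wholly in exon 1 and exon 19, the first and the last. Exon 19 is 3361 nt long, 1258 nt of it coding, and held 18 cerebellum sites and 32 cerebrum sites, with all 18 cerebellum sites among those of the cerebrum. Of its 77 DRACH adenosines, 17 were listed in the cerebellum (22.1%, interval 14.3 to 32.5) and 26 in the cerebrum (33.8%, interval 24.2 to 44.9). Exons 2 to 18 together hold 49 DRACH adenosines in 2218 nt. None of the 49 was listed in the cerebellum (interval up to 7.27%) and 1 was listed in the cerebrum (2.04%, interval 0.361 to 10.7). The 1 listed DRACH site was a GGACT in exon 7 at position 131476921. The cerebellum library had 1 site outside DRACH there, a GCACC in exon 9 at position 131472356 that lies in a soft-masked repeat. Both positions were named after their values were seen.

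The plot of exon 19 shows where its sites lay relative to the stop codon. In its coding part, 9 of 34 DRACH adenosines were listed in the cerebellum (26.5%, interval 14.6 to 43.1) and 17 of 34 in the cerebrum (50.0%, interval 34.1 to 65.9), and 9 were listed in both. The closest to the stop codon was the GGACA at position 131439452, 16 nt upstream of the last base of the stop codon. In the 3′ UTR of 2103 nt, by contrast, the numbers were nearly equal, with 8 of 43 in the cerebellum (18.6%, interval 9.74 to 32.6) and 9 of 43 in the cerebrum (20.9%, interval 11.4 to 35.2). All 8 were common to both libraries. The first 500 nt of the 3′ UTR carried 5 of 15 listed DRACH adenosines in each library, and the remaining 1603 nt carried 3 and 4 of 28. All but 1 of the DRACH positions that exon 19 added in the cerebrum were thus in its coding part. That 1 was a GAACT, 1859 nt past the stop codon, and 15 nt before it the cerebrum alone also listed a GGATT. The intervals of the libraries overlap in the coding part and in the 3′ UTR. Both libraries are scored on the same adenosines, so this overlap does not measure how far the lists differ. The difference between the coding part and the 3′ UTR was not tested, and it was not compared with last exons of other genes.

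**Figure D1:**
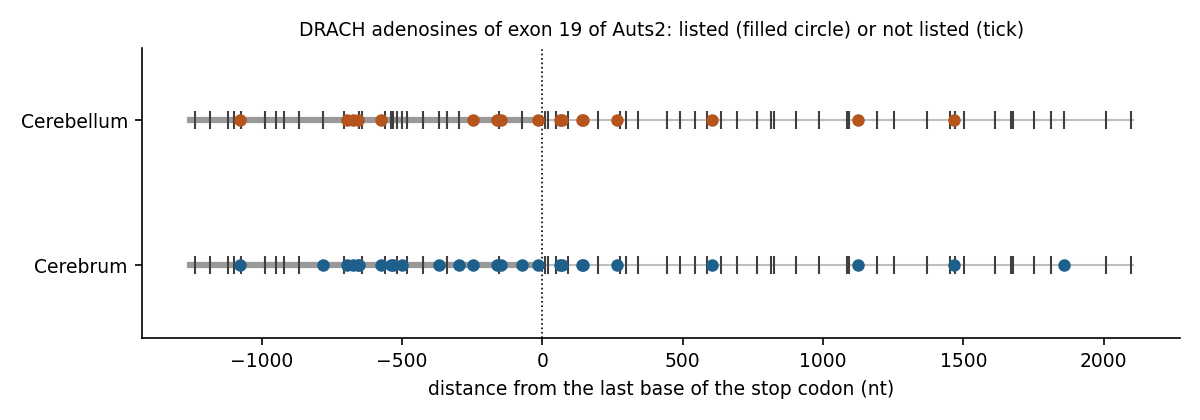
Each DRACH adenosine of exon 19 of Auts2 by its distance in nt from the last base of the stop codon, with the coding part as the thick grey line, filled circles for listed and ticks for unlisted positions. The 17 circles of the cerebellum all recur among the 26 of the cerebrum. Most added circles lie in the coding part, a difference that was not tested.

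In exon 1 the lists shared DRACH positions of the 5′ UTR but none of the few in the coding part. Its 5′ UTR of 1521 nt had 3 of 12 DRACH adenosines listed in the cerebellum (25.0%, interval 8.89 to 53.2) and 4 of 12 in the cerebrum (33.3%, interval 13.8 to 60.9), and the 3 were the same. In the 309 nt of coding sequence that follow, 1 of 9 was listed in the cerebellum (11.1%, interval 1.99 to 43.5) and 3 of 9 in the cerebrum (33.3%, interval 12.1 to 64.6). They had no position in common, beside 83.3% of cerebellum and 48.4% of cerebrum exonic DRACH sites shared over coding genes. Sharing among so few positions was not tested. The cerebellum position in this coding part, 132541567, is a GGACA. It was the only exonic DRACH site of Auts2 in the cerebellum list that was missing from the cerebrum list.

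Of the alternative first exons inside intron 5, only that of Auts2-209 had sites listed in both libraries. The first exon of Auts2-208, chr5:131537660-131538687, has 16 DRACH adenosines. None was listed in the cerebellum (interval up to 19.4%) and 6 were listed in the cerebrum (37.5%, interval 18.5 to 61.4), at positions 131537983, 131537852, 131537822, 131537814, 131537711 and 131537698. Shorter isoforms, Auts2-203 and Auts2-220, overlap this exon, so the sites cannot be given to 1 isoform. The first exon of Auts2-209, chr5:131615957-131616605, has 9 DRACH adenosines, of which both libraries listed the same 2 (22.2%, interval 6.32 to 54.7). The cerebellum added 1 site outside DRACH in this exon. Over coding genes, 48.4% of the cerebrum exonic DRACH sites were also in the cerebellum list. The 6 positions of Auts2-208 were named after their values were seen. The intervals of the alternative first exons overlap in each library, and the difference between the exons was not tested. Exons that belong only to further isoforms held 8 sites, all from the cerebrum, of which 1 was DRACH.

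Introns held most of the Auts2 sites, and most of those sites were neither DRACH nor shared. The cerebellum library listed 50 intronic sites (Poisson interval 37.1 to 65.9), which is 65.8% of its Auts2 sites (interval 54.6 to 75.5). The cerebrum library listed 346 (Poisson interval 310 to 384), or 85.9% (interval 82.1 to 88.9). For all sites in coding genes the intronic share was 17.8% and 26.1%. Only 230 of the 21951 coding genes are 500 kb or longer, and the share was not compared with theirs. Of the intronic Auts2 sites 3 were DRACH in the cerebellum (6.00%, interval 2.06 to 16.2) and 30 in the cerebrum (8.67%, interval 6.14 to 12.1), beside 14.9% and 12.5% of the intronic sites of all coding genes. Among all adenosines in the introns of Auts2, 7.09% are DRACH. Relative to the adenosines available, the cerebrum library listed 14.7 per 10000 DRACH adenosines and 11.8 per 10000 others, and the cerebellum library listed 1.47 and 1.75. The rates for DRACH and other adenosines in these introns thus lay close together in each library, and their difference was not tested.

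Only 3 of the 393 intronic positions were listed in both libraries. They are 6.38% of the 47 cerebellum sites outside DRACH (interval 2.19 to 17.2), beside 7.28% over coding genes, and 0.949% of the 316 cerebrum sites (interval 0.323 to 2.75), beside 2.05%. None of the 3 cerebellum and 30 cerebrum intronic DRACH sites was shared, beside 39.1% and 13.4% for the intronic DRACH sites of all coding genes. Over exons and introns together, 34.2% of the cerebellum sites of Auts2 were also in the cerebrum list, beside 60.8% of all sites, and 6.45% of its cerebrum sites were in the cerebellum list, beside 25.6%. These pooled shares depend on the mix of sites, and Auts2 was chosen for its many intronic sites outside DRACH. Taken apart, the cerebellum shares were 95.7% beside 83.3% for exonic DRACH sites and 6.38% beside 7.28% for intronic sites outside DRACH. The remaining kinds had only 3 cerebellum sites each, with 0% beside 39.1% (intronic DRACH) and 33.3% beside 40.2% (exonic outside DRACH). The 3 shared intronic positions lie within 153 nt of each other in intron 2 and are shown because they are the only ones, with the same notation as above.
chr5 position 132158016, intron 2: tgtgttttCGATAagtaatta
chr5 position 132157870, intron 2: aaatctccCCATTcctatctc
chr5 position 132157864, intron 2: ccccattcCTATCtccagtag
None of them is a DRACH 5-mer, and the CCATT and CTATC adenosines are 6 nt apart. The CGATA lies in a soft-masked repeat.

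**Figure D2:**
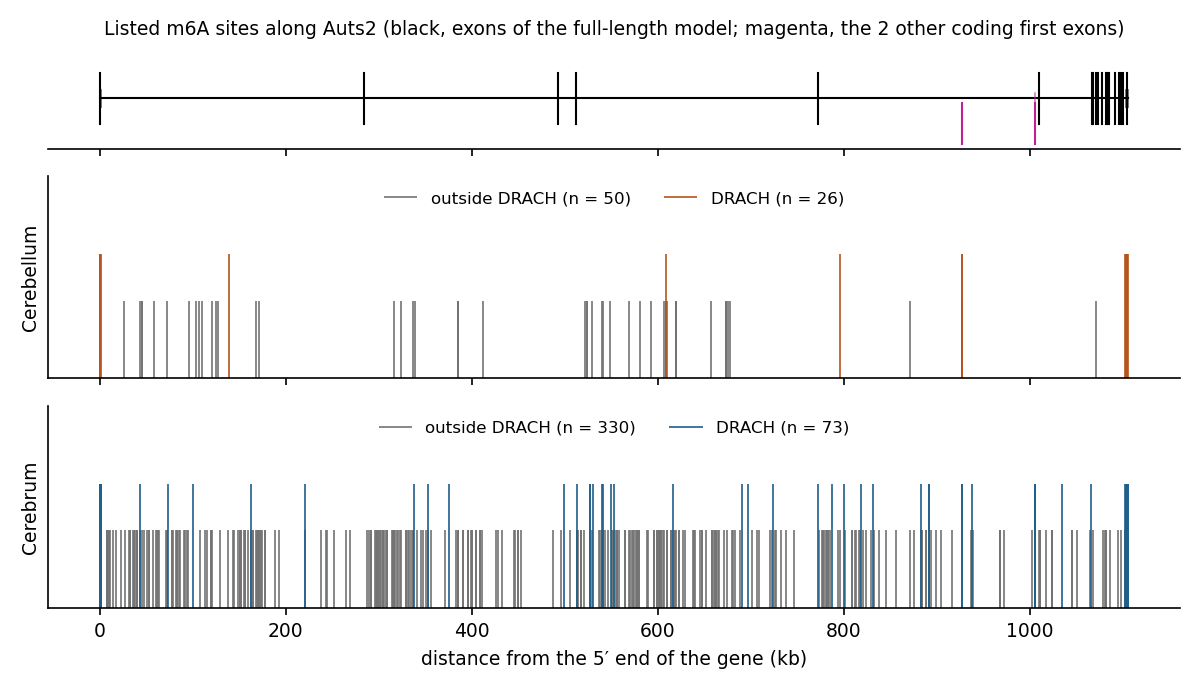
Listed m6A sites of Auts2 by distance from its 5′ end in kb, with tall coloured lines for DRACH sites and short grey lines for others. The DRACH sites of the cerebellum sit mainly at both ends of the gene, and the 330 grey lines of the cerebrum thin out towards the 3′ end of each long intron.

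Nearly all intronic sites were in the 4 introns longer than 200 kb, which make up 89.9% of the intron length of the full-length model. Introns 1, 2, 4 and 5 held all 50 cerebellum sites and 323 of the 346 cerebrum sites (93.4%). Intron 4, of 260 kb, had 24 sites in the cerebellum (0.935 per 10 kb, interval 0.599 to 1.39) and 101 in the cerebrum (3.94 per 10 kb, interval 3.21 to 4.78). Intron 5, of 237 kb, had 2 in the cerebellum (0.0873 per 10 kb, interval 0.0106 to 0.315) and 55 in the cerebrum (2.40 per 10 kb, interval 1.81 to 3.13). Intron 1, of 282 kb, had 16 and 92 sites, and intron 2, of 209 kb, had 8 and 75. The cerebellum list thus gave intron 4 the highest density and intron 5 the lowest of these 4, with intervals that do not overlap, and the cerebrum list put the same introns at the ends of the order. The remaining introns carried only cerebrum sites, 15 in introns 3 and 6 and 8 in introns 7 to 18, which cover 34.5 kb together. At 2.32 sites per 10 kb (interval 1.000 to 4.56), introns 7 to 18 were not distinguishable from intron 5 in the cerebrum by these intervals. For the cerebellum, 0 sites there allow up to 1.07 per 10 kb, which includes the density of each long intron.

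**Figure D3:**
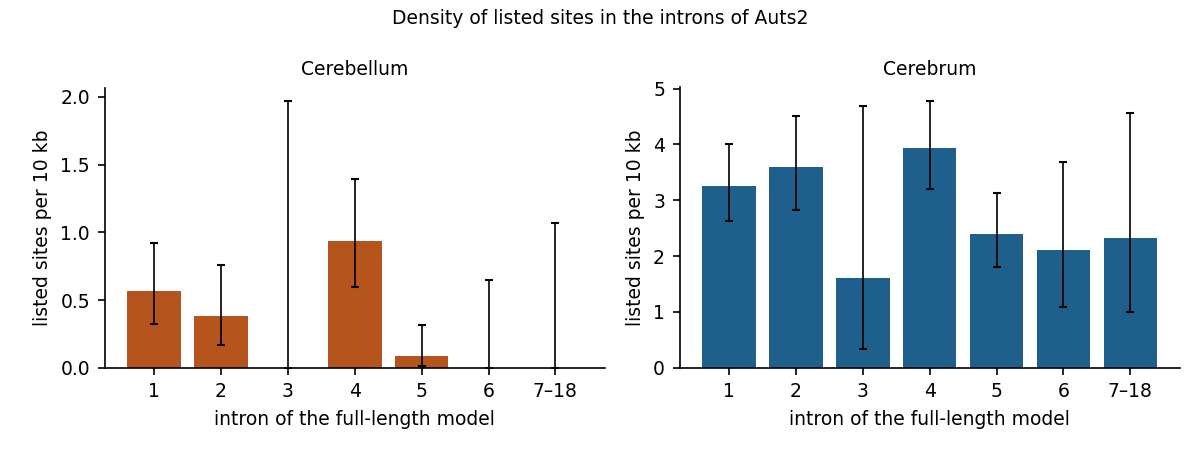
Listed sites per 10 kb in each intron of the full-length Auts2 model, introns 7 to 18 pooled, with bars for the density and error bars for the exact 95% Poisson interval. Among the bars drawn, intron 4 is highest in both libraries, at 0.935 per 10 kb in the cerebellum and 3.94 in the cerebrum. Single introns within the pooled bar can be higher, such as intron 12 at 8.89 in the cerebrum from 1 site.

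Within each long intron the sites were concentrated away from the 3′ end. Introns 1, 2, 4 and 5 were each divided into 3 sections of equal length, called the 5′, middle and 3′ section. The cerebellum sites fell 21, 29 and 0 into these sections, and the cerebrum sites fell 167, 116 and 40. The 3′ section therefore held 0% for the cerebellum (interval up to 7.13%) and 12.4% for the cerebrum (interval 9.23 to 16.4). In the cerebrum the 5′ section held more sites than the 3′ section in all 4 introns, with 48 against 9 in intron 1, 44 against 9 in intron 2, 45 against 14 in intron 4 and 30 against 8 in intron 5. In the cerebellum the middle section held as many sites as the 5′ section or more in each of the 4 introns, and the 3′ section held none. Over the whole gene, intronic sites nearer to the 5′ end of the gene than to its 3′ end made up 62.0% for the cerebellum (interval 48.2 to 74.1) and 55.5% for the cerebrum (interval 50.2 to 60.6).

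Introns of 100 kb or more in 812 other coding genes had the same direction. Their 5′, middle and 3′ sections held 43.3%, 33.9% and 22.8% of 10046 site counts in the cerebellum list. In the cerebrum list they held 43.8%, 34.9% and 21.3% of 28104 site counts. Sites were summed gene by gene, so a site inside overlapping gene models counts more than once. Only exons of the gene itself were left out, so exonic sites of a nested gene can count as intronic. How far this moves the shares was not checked. Of the 77 genes, Auts2 included, with at least 100 such sites in the cerebrum, 72 had more in the 5′ section than in the 3′ section. The median share of the 3′ section over these genes was 20.0%, and 16 of them had a lower share there than Auts2. The decline along long introns is thus not particular to Auts2, and by its 3′ section Auts2 stood towards the low end of the 77.

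**Figure D4:**
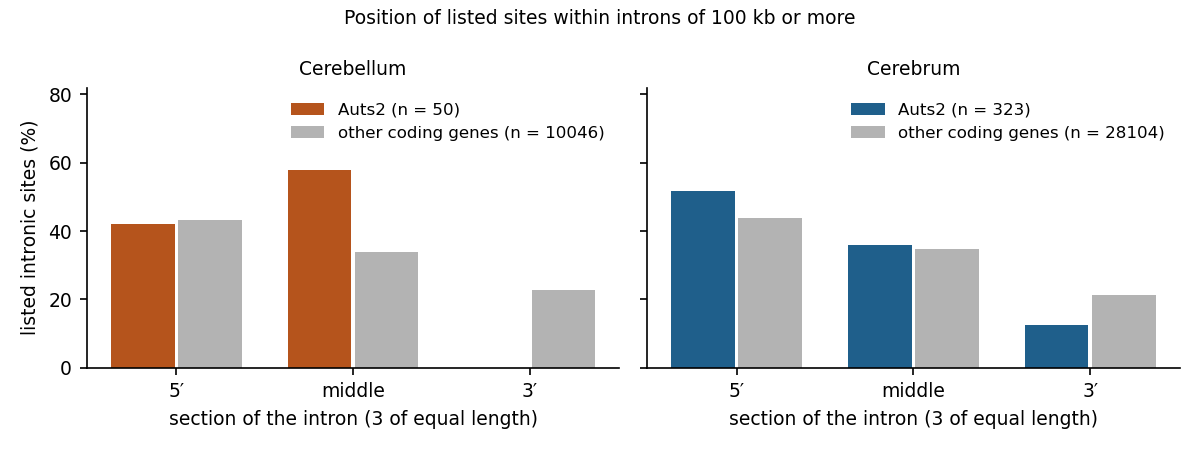
Share in percent of listed intronic sites in the 5′, middle and 3′ section of introns of 100 kb or more, for Auts2 (coloured bars) and for 812 other coding genes (grey bars), by library. The 3′ section of the Auts2 introns holds 0% in the cerebellum and 12.4% in the cerebrum, below the grey bars at 22.8% and 21.3%.

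Along the gene in steps of 50 kb, the cerebrum library had intronic sites in all 23 steps and the cerebellum library in 13. The cerebrum steps ranged up to 32 intronic sites, between 300 and 350 kb from the 5′ end, with a median of 14, and the cerebellum steps up to 8, between 600 and 650 kb. The median gap between neighbouring intronic sites was 6664 nt in the cerebellum and 1709 nt in the cerebrum, against 81 and 56 nt between exonic sites of the full-length model. Close pairs nevertheless occurred in introns, where 14.0% (cerebellum) and 11.6% (cerebrum) of the sites had another site of the same library within 10 nt. The densest intronic windows of 100 nt held 4 sites each, and they are shown because 3 of the 4 listed adenosines in each sit within 10 nt of each other.
chr5 position 131923800, intron 4, cerebellum: attatcaaTCATTatgattgt
chr5 position 131923797, intron 4, cerebellum: atcaatcaTTATGattgtctc
chr5 position 131923794, intron 4, cerebellum: aatcattaTGATTgtctcttt
chr5 position 131923753, intron 4, cerebellum: tcctttcaGTAGCattgtgta
chr5 position 131761738, intron 5, cerebrum: ttctttccTGATGataaaaat
chr5 position 131761732, intron 5, cerebrum: cctgatgaTAAAAatacctgt
chr5 position 131761729, intron 5, cerebrum: gatgataaAAATAcctgtggg
chr5 position 131761669, intron 5, cerebrum: ttggcttcTGATTtctatcct
None of these 8 is a DRACH 5-mer, and none was listed in the other library.

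The intronic sites outside DRACH shared a sequence context although few positions recurred between libraries. A T followed the listed adenosine at 53.2% of these sites in the cerebellum (interval 39.2 to 66.7) and at 51.3% of those in the cerebrum (interval 45.8 to 56.7), against 27.1% of the unlisted adenosines outside DRACH in the same introns. The 3-mer ATC starting at the listed adenosine was found at 17.0% (interval 8.89 to 30.1) and 18.4% (interval 14.5 to 23.0), against 4.93%. CAT centred on it was found at 23.4% (interval 13.6 to 37.2) and 20.3% (interval 16.2 to 25.0), against 7.61%. A C before the adenosine was only moderately more frequent, at 36.2% (interval 24.0 to 50.5) and 38.6% (interval 33.4 to 44.1) against 29.0%. The intronic sites of other coding genes had much the same context, with T after the adenosine at 53.8% and 48.2% and ATC at 24.5% and 16.6%. The most frequent intronic 5-mers of Auts2 were CCATC with 10 positions and TCATT with 9. Soft-masked repeats held 24.8% of the intronic adenosines of the gene, 16.0% of its intronic sites listed for the cerebellum and 20.2% of those listed for the cerebrum.

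A single Auts2 position had no A in the reference. At position 132440147 in intron 1 the reference 5-mer is CAGTC, and the cerebellum library alone listed it. The authors also called sites on an mm10 sequence carrying PWK bases, and whether PWK has an A at this position was not checked.
chr5 position 132440147, intron 1: ctcctcctCAGTCtccagact
It lies in Gm43018, 1 of 22 same-strand genes annotated within the Auts2 interval, all TEC genes, a class of models whose transcripts still await experimental proof. These genes held 14 of the 50 cerebellum and 36 of the 346 cerebrum intronic sites. On the opposite strand of the interval neither library listed a site.

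Auts2 ranked 47th in the cerebellum and 11th in the cerebrum among all coding genes by intronic sites outside DRACH, with 47 and 316 sites. Among the 230 coding genes of 500 kb or more the medians were 10 and 32 sites. Per Mb of intron Auts2 had 43.4 and 292 such sites, against medians of 14.0 and 44.4 for these 230 genes. By that measure it ranked 53rd and 12th among them. The cerebrum count of Auts2 was 6.72 times its cerebellum count, against 3.56 times for such sites in all coding genes. The long genes nearest to it in sites per Mb over both libraries were Ptprd, Opcml, Nbea, Nav3 and Nrxn3. Likeness here is the summed absolute difference in log2 of the count plus 1 per Mb over the 2 libraries, and it says nothing of shared function. Ptprd, a receptor protein tyrosine phosphatase of synapses, had 104 cerebellum and 679 cerebrum sites over 2271 kb, at a distance of 0.15. Opcml, which encodes a cell adhesion protein of the IgLON family, had 48 and 242, at 0.43. Nbea, which encodes neurobeachin, had 26 and 130, at 0.44. Nav3, a neuron navigator, had 37 and 179 and lay at 0.48, and Nrxn3, a presynaptic neurexin, had 97 and 436 and lay at 0.57. In these 5 genes, too, the lists shared few intronic positions outside DRACH, between 0 in Nbea and 6 in Nrxn3. Over all coding genes 7.28% of such cerebellum sites and 2.05% of such cerebrum sites were shared. Few shared positions are thus common for this kind of site and not particular to these genes.

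**Figure D5:**
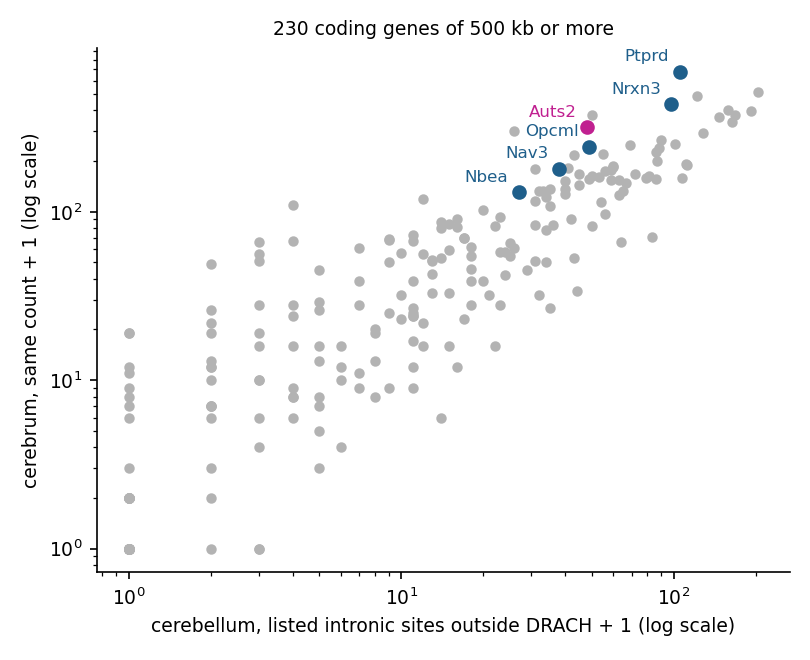
Listed intronic sites outside DRACH plus 1 in the cerebellum against the cerebrum on log axes, 1 point per coding gene of 500 kb or more, with Auts2 in magenta and its 5 nearest genes in blue. Auts2, at 47 and 316 sites, lies near the upper edge of the points with similar cerebellum counts.

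Most of the genes that work with Auts2 carried exonic DRACH sites in at least 1 library. Of the Auts2 family, Fbrsl1 had 3 such sites in the cerebellum, all also among its 11 in the cerebrum, and Fbrs had 0 and 5. Among 11 genes of the Polycomb complexes with AUTS2 and their cofactors, 8 had an exonic DRACH site in the cerebellum and 9 in the cerebrum. Ep300, a histone acetyltransferase, led with 25 and 46, of which 24 were the same positions. Rybp, a subunit that defines variant complexes, had 9 and 14. Pcgf3, which forms the core of such a complex, had 7 and 11, while Pcgf5, its closest relative in the list, had none in either library. The catalytic subunits of casein kinase 2 had 6 and 9 (Csnk2a1) and 3 and 6 (Csnk2a2), and the regulatory subunit Csnk2b had none. Over these 11 genes the libraries listed 58 and 99 exonic DRACH sites, 55 of them in both, and 7 and 33 intronic sites outside DRACH. Of 5 actin regulators, Rac1, Cdc42, Elmo2 and Prex1 had exonic DRACH sites in both libraries, with 5 and 5 in Rac1, 1 and 2 in Cdc42, 2 and 11 in Elmo2 and 4 and 5 in Prex1. Cdc42 also had 3 intronic DRACH sites in each library and 3 and 2 intronic sites outside DRACH, and Prex1 had 1 and 7 of the latter. Dock1, a guanine nucleotide exchange factor gene of 503 kb, had none, and held 1 intronic site outside DRACH in the cerebrum. Over all coding genes, 34.3% had an exonic DRACH site in the cerebellum and 44.2% in the cerebrum. The RNA level of each gene was not measured here, so a gene without a listed site cannot be told from one too thinly covered.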

How the data were processed

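GLORI libraries of cerebellum and cerebrum poly(A)+ RNA, 1 per tissue, were analysed. The authors deaminated unmethylated adenosines, called sites with GLORI-tools v.1.0 on mm10 and on an mm10 sequence carrying PWK bases, and united both sets per library, requiring a methylation rate over 0.1 and more than 8 reads. The deposited files hold 1-nt positions and strands, with no rate, read count or score. Sites near these thresholds thus cannot be set apart, and an unlisted adenosine may be unmethylated, unexpressed or thinly covered. The overlap with m6A-seq peaks, by which the study chose its high-confidence sites, was not applied.

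Positions were read on GRCm38 (pysam 0.24.0, pandas 2.3.3, Python 3.11.15), and gene models were GENCODE M21, whereas the study used v26. GENCODE M21 gives full-length Auts2 no coding sequence, so its start and stop codons were taken from RefSeq. DRACH was read from the reference 5-mer only, so PWK variants within a motif were not taken into account. DRACH and exon assignment were tested on simulated data. No statistical test between libraries was made. Auts2, the gene lists, the rules for named sites and the comparisons were chosen with earlier results of these data known. Genes named were Auts2, its 5 nearest long genes, its family and its nuclear and actin partners. Sites named were up to 15 exonic sites in both libraries, intronic DRACH sites in both (there were 0), the densest 100-nt windows and positions without a reference A. Others are said in the text to have been named after their values were seen. The comparison of 3 equal sections of long introns was added after the data were seen. Alternatives changed the interval, the exon models, the motif, the overlap tolerance and the sites left out.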

Additional observations from a re-analysis of the deposited data

How the results depend on the processing

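Of 46 alternative values, 33 stayed within the interval of the reported share or within 1.5 times the reported count or rank. Restricting the gene to the interval of its longest complete coding isoform, Auts2-209, moved most values by construction. That interval leaves out exons 1 to 5 and introns 1 to 4 of the full-length model. It also leaves out the 5′ part of intron 5 and the distal end of the 3′ UTR. The sites fell to 22 in the cerebellum and 68 in the cerebrum, the intronic share to 0% and 41.2%, the DRACH share rose to 86.4% and 52.9%, and the shared part rose to 90.9% of the cerebellum list and 29.4% of the cerebrum list. Leaving out sites within 10 nt of another site lowered the shared part to 23.8% and 4.37% and raised the cerebrum intronic share to 89.2%. Counting only exons of Auts2-209 raised that share to 91.8%, and counting only exons of the full-length model, an alternative chosen after seeing the data, raised it to 89.8%. Leaving out soft-masked sites or sites in the same-strand TEC genes moved no value beyond these limits. No paired analysis was possible because each tissue has 1 library. The depth of the libraries is unknown and limits what an unlisted position means.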
